A study of Mus musculus with 3 samples.

Results

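The nuclear genes for the respiratory chain and the ATP synthase were described in mouse liver nuclei from 3 libraries. The members were all genes whose symbol starts with Nduf, Uqcr, Atp5, Sdha, Sdhb, Sdhc, Sdhd or Cox followed by 4, 5, 6, 7 or 8, without symbols ending in -ps, which gave 97 of 32285 genes. By role these were 36 subunits of complex I, 8 complex I assembly genes, 4 subunits of complex II, 4 complex II assembly genes, 8 subunits of complex III, 19 of complex IV, 17 of complex V and Cox7a2l, which helps join complexes into supercomplexes. Ndufa4 and Ndufa4l2, first assigned to complex I, were counted with complex IV.

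The nuclei came from frozen liver of mice that were 8 weeks old when the diets began, male C57BL/6N in the series' design text and C57BL/6 in the labels, and each group had 1 library. The SD group ate a standard diet. The MASLD group ate for 18 weeks a diet meant to induce metabolic dysfunction-associated steatotic liver disease and drank a solution of glucose and fructose. The Aza-TdC group had that diet for the same 18 weeks and was given the nucleoside analogue 5-Aza-4′-thio-2′-deoxycytidine, which depletes the DNA methyltransferase DNMT1, by gavage each day at 2 mg/kg from week 14 to week 18. No library combined the drug with the standard diet. The sources used here do not state how many animals a library holds. With 1 library per group no test between groups was possible. Every interval is a 95% interval, which for a level or a ratio covers counting error only. For a median it is an interval of that median, taken from the ranked gene ratios, and treats genes as independent. It is not the range of the genes, although in the shortest lists it reaches that range.

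Electrons from NADH enter the chain at complex I and those from succinate at complex II, pass through ubiquinone to complex III and through cytochrome c to complex IV, which reduces oxygen. Complexes I, III and IV pump protons across the inner mitochondrial membrane, and complex V uses the gradient to make ATP. Most subunits are encoded in the nucleus and imported, while a small set of core subunits, outside complex II, is encoded in mitochondrial DNA. Hepatocytes are rich in mitochondria and rely on this chain for fatty acid oxidation, gluconeogenesis and urea synthesis.

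The SD, MASLD and Aza-TdC libraries held 7139, 6928 and 7598 barcodes with 45162618, 43569644 and 51789068 UMIs, and 6861, 5975 and 6795 nuclei were hepatocyte-like. All 15 hepatocyte markers had UMIs in each library. Levels are given in CPM, the UMIs of a gene per 1000000 UMIs of these nuclei. Between 9 and 15 barcodes were shared by any pair of libraries. Hepatocyte-like nuclei parted by library: clusters 0, 1 and 3 held those of SD, clusters 9 and 13 most of MASLD, and clusters 10 and 12 most of Aza-TdC. Values over these nuclei therefore compare numbered clusters, and a cluster held by 1 library may be that library. Cluster 13, with 3107 MASLD nuclei, had the T cell marker Themis among its 10 leading genes, so results are also given without it. Cluster 13 also holds most MASLD nuclei rich in the pericentral gene Cyp2e1, at 1945 CPM. Cluster 9 had 286 CPM of it and is rich in the periportal gene Cyp2f2. SD keeps its Cyp2e1-rich cluster 0 in that setting, so the mix of liver zones then differs between the libraries. The 9 T and NK cell markers summed to 8.88, 61.8 and 8.54 CPM in the hepatocyte-like nuclei, of which Themis made 6.85, 60.4 and 7.21 CPM. The median share of UMIs from mitochondrial genes (mt- genes) was 0.124% for SD, 0.188% for MASLD and 0.0816% for Aza-TdC, and the 5 red cell genes, mainly haemoglobins, summed to 38.4, 364 and 59.9 CPM. The smallest barcode held 1546 UMIs in SD and 500 in the others.

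Upstream sequence is shown for the 3 genes of the complex V c subunit, which forms the proton-carrying ring, because their levels parted in the Aza-TdC library. It is also shown for Sdhb, the subunit gene with the lowest ratio of MASLD to SD, and for Ndufa4, the one with the highest. These genes were picked after their values were seen. Each line gives, from RefSeq on GRCm38.p6, the 120 bases before the gene's first listed start. They run 5′ to 3′ on the gene's strand, which is minus for all but Sdhb. Other starts were not looked at. In the GENCODE M21 models the Atp5g2 stretch lies inside the gene, whose 5′ end is at 102672352. The stretches of Atp5g1 and Ndufa4 overlap the 5′ ends of their models, at 96075670 and 11907497. The stretches are chr11:96075632-96075751 for Atp5g1, chr15:102671048-102671167 for Atp5g2, chr2:73911327-73911446 for Atp5g3, chr4:140961151-140961270 for Sdhb and chr6:11907451-11907570 for Ndufa4. Capitals mark a match to the NRF1 core on either strand, the only motif of those searched that occurs in these stretches.
Atp5g1: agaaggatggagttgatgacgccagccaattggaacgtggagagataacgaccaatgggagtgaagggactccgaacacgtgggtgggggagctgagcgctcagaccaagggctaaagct
Atp5g2: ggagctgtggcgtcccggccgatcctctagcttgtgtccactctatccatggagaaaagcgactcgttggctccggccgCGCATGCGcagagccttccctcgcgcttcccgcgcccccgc
Atp5g3: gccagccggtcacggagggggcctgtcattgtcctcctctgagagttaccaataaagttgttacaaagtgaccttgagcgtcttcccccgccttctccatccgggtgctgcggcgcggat
Sdhb: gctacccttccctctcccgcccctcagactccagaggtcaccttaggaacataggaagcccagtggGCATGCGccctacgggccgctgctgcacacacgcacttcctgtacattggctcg
Ndufa4: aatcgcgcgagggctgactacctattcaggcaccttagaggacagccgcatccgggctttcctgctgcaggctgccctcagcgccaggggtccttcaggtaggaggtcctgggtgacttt
Atp5g2 holds a palindrome that matches the NRF1 core on both strands, Sdhb matches it on the minus strand, and the others have no match.

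Windows of 300 bases, 250 before the start and the rest after it, were found for 79 of the 97 members. They were set beside those of 27025 genes, with only the first listed window of each gene used. The letters searched, on both strands, were CGCATGC, the core of the site of nuclear respiratory factor NRF1, CCGGAAG, the core of ETS factors such as GABPA, and ATGGCGG, the core of YY1. These factors are known regulators of respiratory chain genes. The NRF1 core was in 15.2% of the members' windows and 3.64% of all windows, the ETS core in 26.6% and 9.12%, and the YY1 core in 15.2% and 4.19%. The median number of CpG per 100 bases was 6.67 in members and 2.33 in all windows, and each of the 3 motifs contains CG. Of the 12 members with a window that stood at least 2-fold higher in MASLD than in SD, 0 held the NRF1 core, and of the 36 members under 1.5-fold higher, 8 did. The ETS core was in 3 and 10 of these, and the YY1 core in 2 and 8. Members between 1.5-fold and 2-fold higher are in neither group. Among them Uqcr11, with a log2 ratio of 0.996 just under the 2-fold limit, held the NRF1 core. So did Ndufa11, Atp5l and Atp5g2, at 0.95, 0.78 and 0.76. A match is a description of letters and not of binding.

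In MASLD against SD the subunit genes stood higher as a group, most of all those of complexes IV and III, while complex II and the assembly genes lay nearer to the level of other genes. Over hepatocyte-like nuclei the subunit genes of complexes I to V summed to 3767 CPM (3749 to 3785) in SD, 5647 CPM (5624 to 5670) in MASLD and 3820 CPM (3803 to 3837) in Aza-TdC. MASLD stood above both other libraries, which lay close together. The median log2 ratio of CPM over the 92 members with at least 20 UMIs in the libraries compared was 0.61 (0.44 to 0.74), beside 0.15 for all 15775 genes measured, and 82 of the members lay above 0, beside 60.7% of all genes. At least 2-fold higher were 15 members, or 16.3%, beside 13.5% of all genes, and 0 were at least 2-fold lower, beside 5.21%. At a minimum of 100 UMIs 14 of 90 members were at least 2-fold higher, beside 10.4% of all genes, and 0 lower, beside 3.56%. The 16.3% at the lower minimum is close to the background. At 1.5-fold the counts part from it: 48 members were higher, or 52.2%, beside 25.7% of all genes, and 1 was lower, beside 11.3%. Nearest to the 2-fold limit lay Cox4i1, just inside it, and Uqcr11 and Atp5mpl, just outside, all at 1.00 after rounding. Median-ratio scaling, which took the median of all genes from 0.15 to 0.02, gave a members' median of 0.48, with 4 members at least 2-fold higher, beside 11.3% of all genes, and 1 lower, beside 6.54%. Leaving out cluster 13 left 2868 MASLD nuclei, mostly of the Cyp2f2-rich cluster 9, while SD kept its Cyp2e1-rich cluster 0. Cluster 9 had the higher subunit level of these 2 MASLD clusters, 5827 against 5429 CPM in cluster 13. Without cluster 13 the median was 0.72 with 21 members at least 2-fold higher, beside 13.3% of all genes. In nuclei without any haemoglobin UMI, 6047 of 6861 in SD and 1249 of 5975 in MASLD, it was 0.52 with 5, beside 12.5%. That setting thus kept unlike parts of the libraries, and the depth of the nuclei kept was not compared.

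**Figure D1:**
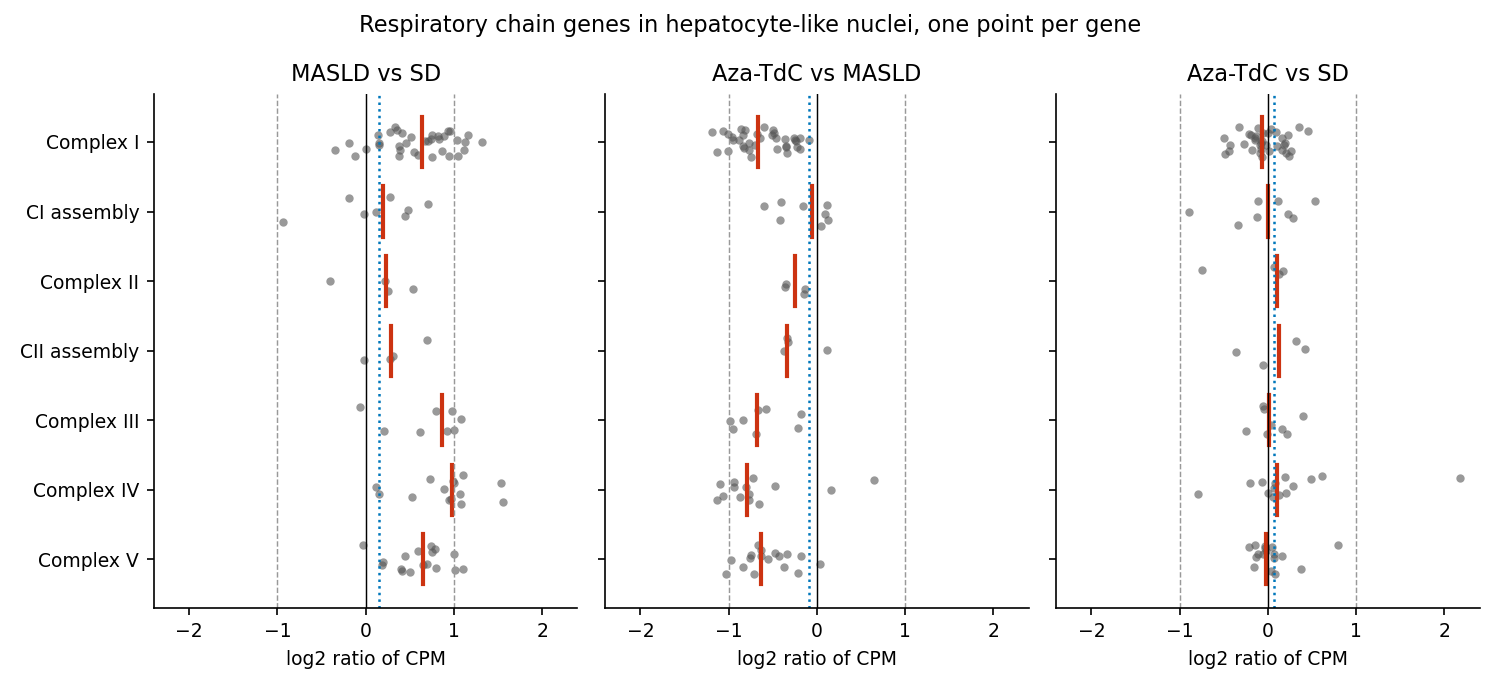
Log2 ratios of CPM in hepatocyte-like nuclei for each measured member (points), by role (rows) and comparison (panels); red bars are medians of a role, the dotted blue line is the median of all genes and dashed lines mark 2-fold. In MASLD against SD the medians of complexes III and IV are 0.86 and 0.98, and in Aza-TdC against SD the role medians lie around 0.

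Because mt- transcripts differed between the libraries, nuclei were also drawn so that each library had equal numbers in each of 20 bins of mt- share, 2986 nuclei per library. The median mt- share was then 0.123% in each. The members' median in MASLD against SD was 0.44 (0.35 to 0.60), beside 0.17 for all genes, and 82 of 92 lay above 0, beside 62.5%. In this set 4 members, or 4.35%, were at least 2-fold higher, below the 13.2% of all genes, and 0 were at least 2-fold lower, beside 4.39%. At 1.5-fold 37 were higher, beside 25.7% of all genes, and 2 lower, beside 10.3%. The 13 mt- genes for chain subunits, which the matching evens by construction, had a median of 0.82 before and 0.09 after it. Red cell genes were not evened and summed to 38.2 CPM for SD against 273 CPM for MASLD.

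Subunit transcripts were higher in nuclei with a higher mt- share, and MASLD stood above SD at each share up to 1%. In nuclei with under 0.05% mt- UMIs the subunits summed to 3566 CPM (3506 to 3628) in SD over 455 nuclei, 4896 CPM (4781 to 5013) in MASLD over 159 and 3741 CPM (3705 to 3777) in Aza-TdC over 1394. At 0.4 to 1% they summed to 4559 CPM (4345 to 4781) in SD over 151 nuclei, 7085 CPM (7003 to 7167) in MASLD over 666 and 5334 CPM (5015 to 5668) in Aza-TdC over 47. Between 0.05 and 0.1% they were no higher than under 0.05% in MASLD, at 4888 CPM. From the lowest to the highest of these shares complex IV went from 574 to 699.94 CPM in SD, from 987 to 1666 CPM in MASLD and from 664 to 1190 CPM in Aza-TdC. Complex II differed less, from 278 to 314 CPM in SD, 312 to 341 CPM in MASLD and 294 to 277 CPM in Aza-TdC, with overlapping intervals between the lowest and highest share in each library. Depth was not evened within these shares. At 0.4 to 1% the SD nuclei were shallower, with 372890 UMIs over 151 nuclei against 4028041 over 666 in MASLD. Under 0.05% SD had 3714807 UMIs over 455 nuclei and MASLD 1396646 over 159.

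**Figure D2:**
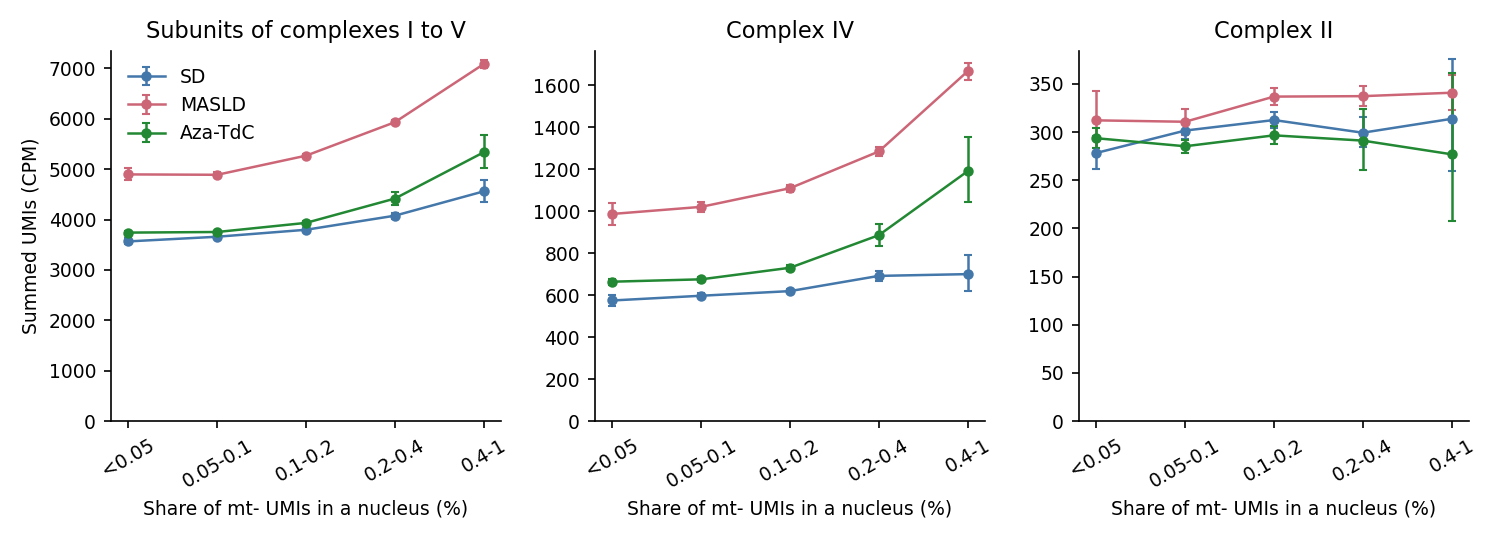
Summed UMIs (CPM, with Poisson 95% intervals) of all subunits, of complex IV and of complex II against the share of mt- UMIs of a nucleus, for the 3 libraries. For all subunits MASLD lies above SD in each bin, from 4896 against 3566 CPM in the lowest to 7085 against 4559 CPM in the highest.

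In MASLD against SD transcripts typical of the cytoplasm stood higher, as the members did, and those retained in the nucleus lower. The 93 genes measured for cytosolic ribosomal proteins had a median of 0.71 (0.59 to 0.81), and 10 abundant cytoplasmic housekeeping genes had 1.06 (0.80 to 1.89). The 5 transcripts listed as retained in the nucleus, Malat1, Neat1, Kcnq1ot1, Meg3 and Mlxipl, had -0.74 and ranged widely, from -2.53 to -0.09. In Aza-TdC against SD, where the members' median was 0.00, the medians were 0.05 for the ribosomal, 0.51 for the housekeeping and -0.30 for the retained list. In matched nuclei of MASLD against SD they were 0.57, 1.08 and -0.75. Markers of other cell types also differed in the hepatocyte-like nuclei of SD, MASLD and Aza-TdC. The 10 macrophage markers summed to 5.03, 25.98 and 26.1 CPM. The 7 cholangiocyte markers summed to 57, 117 and 95.6 CPM, of which Pkhd1 made 51.1, 106 and 87.5. The 10 endothelial markers summed to 32.02, 47.8 and 35.8 CPM, of which F8 made 15.4, 26.8 and 22.6. The 9 stellate markers summed to 33.1, 28.7 and 17.2 CPM, of which Reln made 19.9, 6.37 and 1.05. Every other stellate marker was higher in MASLD than in SD. Markers of B cells, dendritic cells and smooth muscle summed lower in MASLD than in SD, and those of mesothelial cells and neutrophils higher. The macrophage sum was level between MASLD and Aza-TdC, but single macrophage markers went both ways. Lyz2 had 8.43 CPM in MASLD and 1.51 CPM in Aza-TdC, and Ctss 3.20 and 1.67 CPM. Clec4f had 4.07 CPM in MASLD and 8.34 CPM in Aza-TdC, and Marco 0.266 and 1.43 CPM. The part of cytoplasmic RNA or of other cells in the members' difference was not tested.

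By complex, the summed CPM in SD, MASLD and Aza-TdC was 1387, 1934 and 1338 for complex I, 304, 333 and 290.23 for complex II, 412, 673 and 441 for complex III, 616, 1225 and 694 for complex IV, and 1048, 1482 and 1057 for complex V. MASLD was highest for each complex. As log2 ratios of these sums, MASLD against SD was 0.48 (0.47 to 0.50) for complex I, 0.13 (0.09 to 0.16) for complex II, 0.71 (0.68 to 0.73) for complex III, 0.99 (0.97 to 1.01) for complex IV and 0.50 (0.48 to 0.52) for complex V. Complex IV parted most and complex II least. In matched nuclei the ratios were 0.37, 0.07, 0.58, 0.84 and 0.39 in the same order of complexes. Without cluster 13 they were 0.54, 0.18, 0.77, 1.05 and 0.57, and without any haemoglobin UMI 0.40, 0.14, 0.56, 0.86 and 0.40. Complex I assembly genes summed lower in MASLD, at -0.24 (-0.28 to -0.21), with Ndufaf6 and Ndufaf4 lower, while their median was 0.20. Complex II assembly genes had 0.26 (0.20 to 0.32). Cox7a2l had 32.3, 42.3 and 29.02 CPM and a ratio of 0.39 (0.29 to 0.49).

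**Figure D3:**
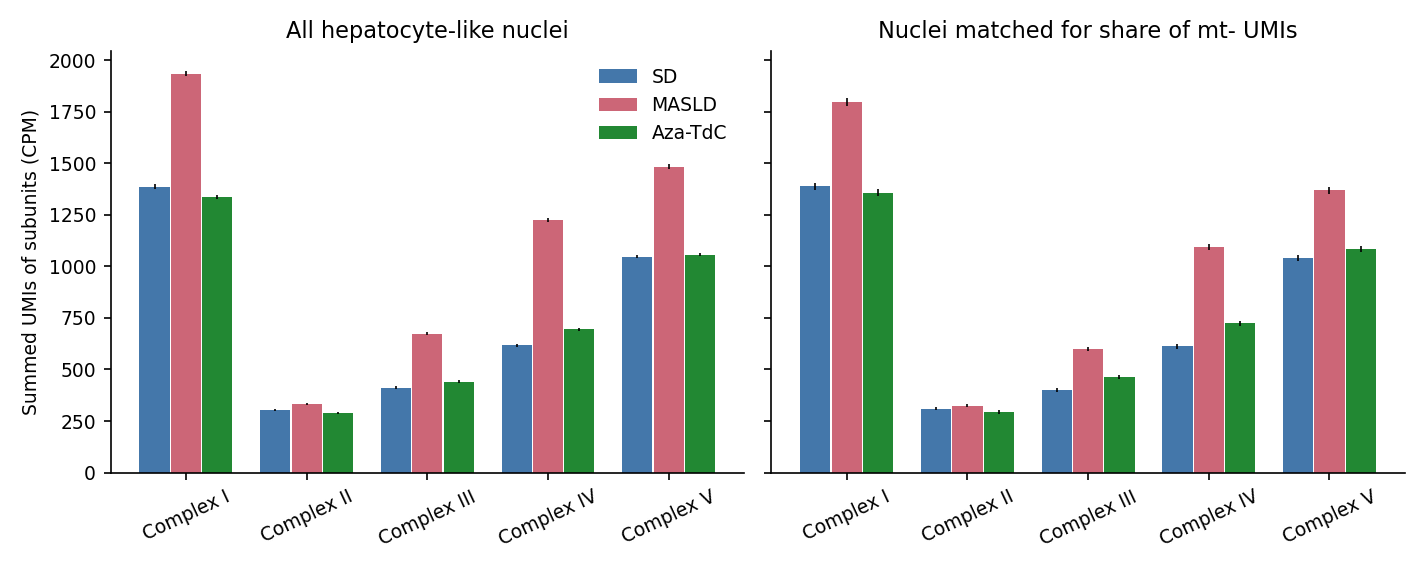
Summed UMIs of the subunits of each complex (CPM, bars from 0, Poisson 95% intervals) in the 3 libraries, over all hepatocyte-like nuclei and over nuclei matched for share of mt- UMIs. Complex IV shows the widest ratio, with 616 CPM in SD and 1225 CPM in MASLD over all nuclei, and complex II the narrowest.

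Within complex I the genes of the catalytic core and those of accessory subunits had different ratios, a grouping made after the values were seen. The 7 nuclear core genes, which carry the flavin, the iron-sulphur clusters and part of the ubiquinone site, had a median of 0.14 in MASLD against SD and ranged from -0.34 to 0.38. The 29 accessory genes had a median of 0.75, from -0.12 to 1.31. In matched nuclei the medians were 0.11 and 0.54. The core genes are also longer, with a median span of 10194 bases and 2178 exon bases, against 8379 and 1251. Ndufs1, which holds iron-sulphur clusters, had 123, 123 and 108 CPM in SD, MASLD and Aza-TdC, a ratio of 0.00 (-0.05 to 0.06) in MASLD against SD. Ndufv1, the NADH-binding subunit with the flavin, had 34.5, 27.2 and 25.6 CPM and -0.34 (-0.46 to -0.23). Ndufs1 was level and Ndufv1 lower in MASLD, and both were lower in Aza-TdC than in SD, at -0.19 and -0.43.

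Most accessory subunits stood higher in MASLD and near the SD level in Aza-TdC. Ndufs6, which binds zinc and joins late in assembly, had 15.3, 38.1 and 17.4 CPM, with 1.31 (1.18 to 1.45) in MASLD against SD, -1.13 (-1.25 to -1.01) in Aza-TdC against MASLD and 0.19 (0.04 to 0.34) in Aza-TdC against SD. Ndufb6 of the membrane arm had 10.98, 24.6 and 12.2 CPM, with 1.16 (1.00 to 1.32) and then -1.01 (-1.15 to -0.86). Ndufa1, a small membrane subunit, had 13.1, 28.7 and 12.6 CPM, with 1.13 (0.98 to 1.27) and then -1.19 (-1.33 to -1.05). For each of these 3 the MASLD library stood apart from the others. Ndufb9 of the membrane arm had 46.3, 74.02 and 43.4 CPM. Ndufa8 had 25.3, 33.1 and 17.9 CPM and Ndufa10 61.2, 56.2 and 43.7 CPM, and both stood lower in Aza-TdC than in SD, at -0.49 (-0.62 to -0.37) and -0.49 (-0.57 to -0.40).

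The assembly genes of complex I took other courses. Ndufaf6, needed to build the early membrane arm, had 87.3 CPM (84.6 to 90.1) in SD, 45.4 CPM (43.4 to 47.5) in MASLD and 47.01 CPM (45.1 to 48.96) in Aza-TdC. It had the lowest ratio of all members in MASLD against SD, -0.94 (-1.02 to -0.86), and in Aza-TdC against SD, -0.89 (-0.97 to -0.82), while Aza-TdC against MASLD gave 0.05 (-0.04 to 0.14). In matched nuclei the first 2 were -0.92 and -0.90. Ndufaf6 was thus lower in both libraries on the diet. Ndufaf4 had 141, 124 and 111 CPM and was lower in both as well. Ndufaf2 had 38.7, 41.9 and 45.4 CPM, Ndufaf7 13.9, 13.7 and 14.97 CPM and Ndufaf5 5.66, 7.70 and 8.20 CPM, and their ratios in Aza-TdC against MASLD were 0.11, 0.13 and 0.09.

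In complex II, which oxidises succinate and also belongs to the citric acid cycle, members parted. Sdhb, the iron-sulphur subunit, had 80.99 CPM (78.4 to 83.7) in SD, 61.4 CPM (59.04 to 63.8) in MASLD and 48.1 CPM (46.2 to 50.1) in Aza-TdC. Its 3 intervals do not overlap, and its ratios were -0.40 (-0.47 to -0.33) in MASLD against SD, -0.35 (-0.43 to -0.27) in Aza-TdC against MASLD and -0.75 (-0.83 to -0.68) in Aza-TdC against SD. In matched nuclei they were -0.46, -0.31 and -0.77. Sdha, the flavoprotein that binds succinate, had 139.77, 167 and 152 CPM, so it stood highest in MASLD. The membrane anchors Sdhc and Sdhd had ratios of 0.21 and 0.54 in MASLD against SD.

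In complex III the large core protein Uqcrc1 had 54.4, 51.96 and 45.8 CPM and a ratio of -0.07 (-0.15 to 0.02) in MASLD against SD. Uqcrfs1, the Rieske iron-sulphur protein, had 26.2, 49.6 and 25.1 CPM, with 0.92 (0.82 to 1.03) and then -0.98 (-1.09 to -0.88). These genes of 1 complex thus differed in MASLD. The other 6 members ranged from 0.21 for Uqcrc2 to 1.08 for Uqcrq.

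Complex IV, the oxidase, had 14 measured members, 14 of them above 0 in MASLD against SD, beside 60.7% of all genes, and 6 at least 2-fold higher, beside 13.5%. In matched nuclei 13 lay above 0, beside 62.5% of all genes, 3 were at least 2-fold higher, beside 13.2%, and 1 was lower by at least 1.5-fold, beside 10.3%. Ndufa4, which sits at the edge of the complex, had 52 CPM (49.9 to 54.2) in SD, 153 CPM (149 to 157) in MASLD and 73.01 CPM (70.7 to 75.4) in Aza-TdC. Its ratio in MASLD against SD, 1.56 (1.49 to 1.63), was the highest of all measured members, and in matched nuclei it was 1.29. In Aza-TdC it was -1.07 (-1.13 to -1.01) against MASLD and 0.49 (0.41 to 0.57) against SD, so it stayed above SD. Cox4i1, the regulatory subunit of most tissues, had 88.9, 178 and 102 CPM. Cox5a, a matrix-side subunit, had 46.97, 101 and 47.1 CPM, with 1.10 (1.03 to 1.18), then -1.10 (-1.17 to -1.03), and 0.01 (-0.08 to 0.09) in Aza-TdC against SD. Cox5b, which binds zinc, had 35.8, 75.2 and 34.3 CPM. In these 2 genes Aza-TdC lay at the SD level. Cox7b, a small membrane subunit, had 55.8, 118 and 85.3 CPM and kept 0.61 (0.54 to 0.68) in Aza-TdC against SD.

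Subunits of complex IV with tissue isoforms were seen mainly in their common form. Cox6a1 had 46.9, 67.6 and 40.9 CPM, Cox6b1 50.3, 96.5 and 52.97 CPM, Cox7a2 39.8, 77.96 and 45.7 CPM and Cox8a 54.9, 102 and 59.8 CPM, each highest in MASLD. Most other isoforms were at or near 0. Cox8b, the muscle form, and Cox8c had 0 UMIs in each library, which allows up to 0.0676 CPM in SD, 0.0726 CPM in MASLD and 0.0604 CPM in Aza-TdC. The muscle form Cox6a2 had 0, 1 and 5 UMIs, the lung form Cox4i2 2, 0 and 2 and Cox7b2 1, 2 and 0. The muscle form Cox7a1 had 31, 32 and 20 UMIs. Cox6b2, known from testis, had 13, 35 and 66 UMIs, or 0.293, 0.847 and 1.33 CPM. It alone among the measured members was at least 2-fold higher in Aza-TdC than in SD, with 2.18 (1.31 to 3.16), and it had 1.53 (0.58 to 2.57) in MASLD against SD. In matched nuclei, where SD had 2 UMIs, these were 3.82 (1.83 to 6.93) and 3.45 (1.45 to 6.58). Its ratio in Aza-TdC against MASLD was 0.65 (0.04 to 1.28), and -0.24 without cluster 13. Ndufa4l2, the hypoxia-induced relative of Ndufa4, had 3.97, 4.31 and 4.81 CPM, with 0.12 (-0.19 to 0.43) in MASLD against SD.

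In complex V the catalytic subunits Atp5a1 and Atp5b had 176, 202 and 159 CPM and 134, 132 and 116 CPM. Atp5b had a ratio of -0.03 (-0.08 to 0.02) in MASLD against SD, level within counting error. The 3 genes of the c subunit encode the same mature protein with different import sequences. They had like ratios in MASLD against SD and parted in Aza-TdC. Atp5g1 had 37.5, 60.5 and 35.97 CPM. Atp5g2 had 45.1 CPM (43.1 to 47.1) in SD, 76.1 CPM (73.4 to 78.8) in MASLD and 78.2 CPM (75.8 to 80.7) in Aza-TdC. Atp5g3 had 47.3, 82.4 and 61.4 CPM. Atp5g1 in Aza-TdC was back at the SD level, Atp5g2 was at the MASLD level and Atp5g3 lay between. The ratios in MASLD against SD were 0.69 (0.60 to 0.78), 0.76 (0.67 to 0.84) and 0.80 (0.72 to 0.88) in this order, and those in Aza-TdC against MASLD -0.75 (-0.84 to -0.66), 0.04 (-0.03 to 0.11) and -0.43 (-0.50 to -0.35). In matched nuclei the last were -0.46, 0.14 and -0.15. Without cluster 13 the ratios in MASLD against SD were 1.59 for Ndufa4, 1.44 for Ndufs6, -0.97 for Ndufaf6, -0.30 for Sdhb and 0.85 for Atp5g2, and in nuclei without a haemoglobin UMI 1.32, 1.03, -0.92, -0.52 and 0.54. These 5 genes kept their direction in both sets. Of the 3 c subunit genes, only Atp5g2 has the NRF1 core in the stretch printed above, which lies inside its GENCODE gene model. Other members with the core in their window went both ways in Aza-TdC against SD, such as Ndufa8 at -0.49 and Ndufa11 at 0.36. Whether the core has a part in these ratios was not tested.

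**Figure D4:**
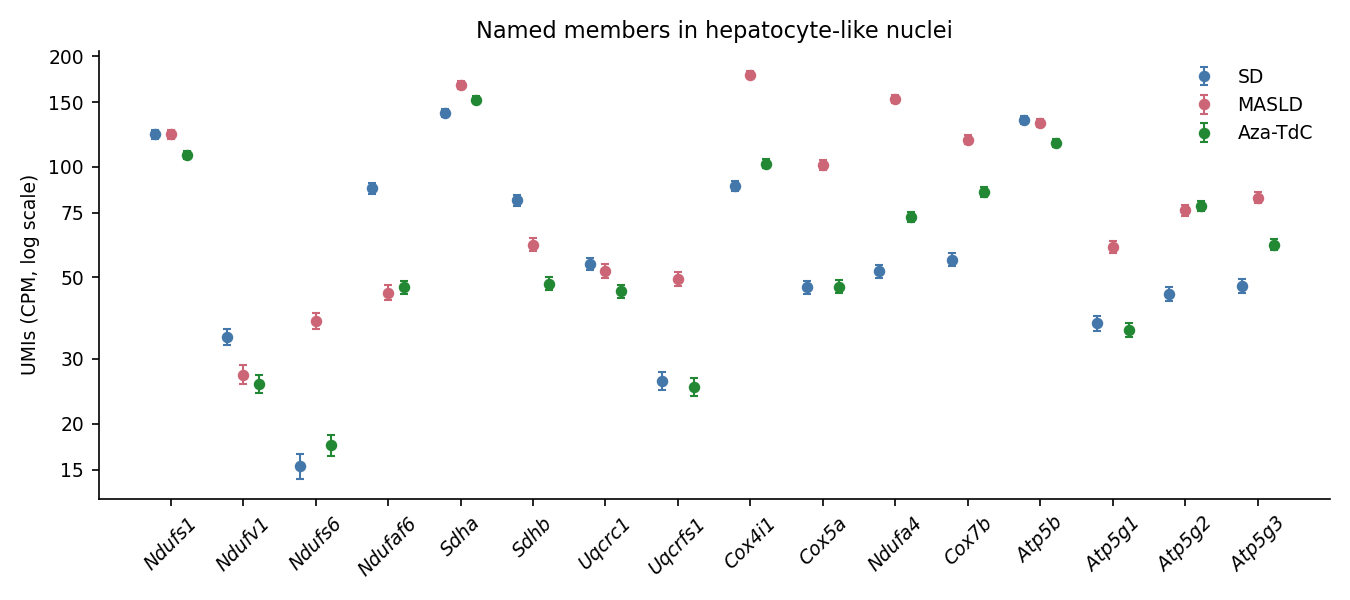
CPM of 16 named members (log axis, exact Poisson 95% intervals) in the 3 libraries over hepatocyte-like nuclei. Ndufa4 reaches 153 CPM in MASLD, Sdhb has 80.99, 61.4 and 48.1 CPM in SD, MASLD and Aza-TdC, Ndufaf6 is lower in both libraries on the diet, and Atp5g2 is as high in Aza-TdC as in MASLD.

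In Aza-TdC against MASLD the members stood lower, complex IV most and complex II least among the complexes. The median over 92 measured members was -0.59 (-0.69 to -0.45), beside -0.09 for all 15941 genes measured. At least 2-fold lower were 9 members, or 9.78%, beside 5.26% of all genes, and 0 were at least 2-fold higher, beside 3.14%. At a minimum of 100 UMIs 9 of 91 members were lower, beside 3.41% of all genes, and 0 higher, beside 1.68%. At 1.5-fold 46 were lower, beside 13.6% of all genes, and 1, Cox6b2, was higher, beside 7.78%. The medians were -0.66 for complex I, -0.25 for complex II, -0.68 for complex III, -0.79 for complex IV and -0.63 for complex V. In matched nuclei the members' median was -0.44 (-0.51 to -0.32), with 0 of 91 members at least 2-fold lower, beside 5.11% of all genes, and 0 higher, beside 2.8%. At 1.5-fold 23 were lower there, beside 13.6%, and 0 higher, beside 7.23%. Without cluster 13 in the MASLD library 15 members were at least 2-fold lower, beside 5.44% of all genes, with median-ratio scaling 4, beside 4.22%, and in nuclei without a haemoglobin UMI 3, beside 5.15%. Cytosolic ribosomal protein genes had a median of -0.70 (-0.74 to -0.62) and the mt- genes for chain subunits -1.44.

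In Aza-TdC against SD the members' median was 0.00 (-0.06 to 0.07), beside 0.06 for all 15881 genes measured, and 46 of 92 lay above 0, beside 55.1% of all genes. At least 2-fold higher was 1 member, Cox6b2, or 1.09%, beside 10.5% of all genes, and 0 were at least 2-fold lower, beside 5.14%. At 1.5-fold 3 were higher, beside 19.8% of all genes, and 3 lower, beside 11.8%. Both shares of members lie under the background. At a minimum of 100 UMIs 0 of 90 members were at least 2-fold higher, beside 7.43% of all genes, and 0 lower, beside 3.50%. In matched nuclei the median was 0.04 (-0.01 to 0.12), with 1 member at least 2-fold higher, beside 9.55%, and 1, Cox7a1 with 18 UMIs in SD and 5 in Aza-TdC, at least 2-fold lower, beside 4.34%. At 1.5-fold 4 were higher there, beside 18.7%, and 3 lower, beside 10.6%. Each library enters 2 of the 3 comparisons, so their ratios are not independent. Among members with at least 50 UMIs in SD or Aza-TdC the highest ratios were those of Cox6b2, Atp5g2, Cox7b and Ndufaf5, and the lowest those of Ndufaf6, Sdhb, Ndufa8 and Ndufa10. Cox7a1, with fewer UMIs, had -0.80 (-1.68 to 0.06).

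Other lists of nuclear genes tied to mitochondria had smaller medians in MASLD against SD than the members, except those for antioxidant enzymes and stress responses. Not all listed genes encode mitochondrial proteins: the stress list includes Atf4, Ddit3 and Fgf21, and the biogenesis list includes nuclear transcription factors. Of all genes 13.5% were at least 2-fold higher and 5.21% at least 2-fold lower in this comparison. Of 29 assembly factors outside the members 0 were at least 2-fold higher or lower, with a median of 0.12 (-0.06 to 0.37). Of 17 genes of the citric acid cycle and pyruvate dehydrogenase 0 were higher and 1 lower, with 0.08 (-0.25 to 0.26). Of 14 genes of cytochrome c and ubiquinone synthesis 0 were higher or lower, with 0.06 (-0.08 to 0.56). These lists lay at or near the median of all genes. Of 18 genes of mitochondrial biogenesis and mtDNA upkeep, among them Ppargc1a, Nrf1 and Tfam, 0 were higher or lower, with -0.02 (-0.19 to 0.31). Of 78 mitochondrial ribosomal protein genes 2 were higher, with 0.28 (0.17 to 0.46). Genes that feed electrons to the chain by other routes had 0.56 (-0.91 to 0.80) over 7 measured, with 0 at 2-fold. Of 13 genes for uncoupling, carriers and antioxidant enzymes 6 were at least 2-fold higher, beside 13.5% of all genes, with 0.76 (-0.08 to 2.03), and of 14 for mitochondrial proteases, chaperones and the integrated stress response 6 were, with 0.74 (-0.21 to 1.81). In Aza-TdC against SD the last 2 lists had 0.40 and 0.55, with 3 and 5 genes at least 2-fold higher, beside 10.5% of all genes, and 1 and 0 at least 2-fold lower, beside 5.14%. Whether the lists differ from the members was not tested.

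Gene length went with the ratio, for members and for other genes. In MASLD against SD the 29 members with a gene span under 5000 bases had a median of 0.80, the 48 of 5000 to 20000 bases 0.66 and the 13 of 20000 to 100000 bases 0.19. The same bins held 2355, 5144 and 6122 genes in all, with medians of 0.37, 0.17 and 0.12. The part of length in the members' ratios was not tested. For 31 members another gene overlaps the gene model, among them Shmt2 opposite Ndufa4l2 and Mrpl36 opposite Ndufs6, and for 1, Ndufa13, on the same strand. How the counting used strand is not stated, and reads shared with overlapping genes or with processed copies of subunit genes cannot be assigned here.

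Across hepatocyte-like clusters the summed subunits varied within each library. In SD, cluster 3, whose leading genes include Glul, the glutamine synthetase of the layer next to the central vein, had 3119 CPM (3042 to 3197), cluster 0 3594 CPM (3569 to 3620) and cluster 1 4006 CPM (3979 to 4033). Cluster 1 had more of the periportal gene Cyp2f2 than cluster 0, 452 against 54.7 CPM, and less of the pericentral gene Cyp2e1, 244 against 1252 CPM. In MASLD the Glul-rich cluster 14 had 5042 CPM (4951 to 5134), the Cyp2e1-rich cluster 13 5429 CPM (5399 to 5460) and the Cyp2f2-rich cluster 9 5827 CPM (5790 to 5865). In Aza-TdC the Glul-rich cluster 14 had 3165 CPM (3085 to 3246), the Cyp2e1-rich cluster 12 3575 CPM (3548 to 3602) and the Cyp2f2-rich cluster 10 3921 CPM (3897 to 3944). For these clusters, the largest of each kind, the order Glul-rich, Cyp2e1-rich, Cyp2f2-rich was the same in the 3 libraries. Their intervals do not overlap within a library. Small groups of nuclei did not all keep this order. The 22 MASLD nuclei of the Cyp2e1-rich cluster 12 had 4512 CPM (4180 to 4863), below cluster 14. The 26 Aza-TdC nuclei of the Cyp2e1-rich cluster 13 had 4403 CPM (4022 to 4810), above cluster 10. The 70 Aza-TdC nuclei of the Cyp2f2-rich cluster 9 had 4640 CPM (4418 to 4870). Clusters were made with all genes eligible, members included, so this is a description. Cluster 11, whose leading genes include Fgf21, Gadd45a and Nupr1, stood highest, with 10641 CPM (10404 to 10883) over 71 nuclei of MASLD and 7333 CPM (7146 to 7524) over 84 of Aza-TdC. Without it the members' median in MASLD against SD was 0.58.

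**Figure D5:**
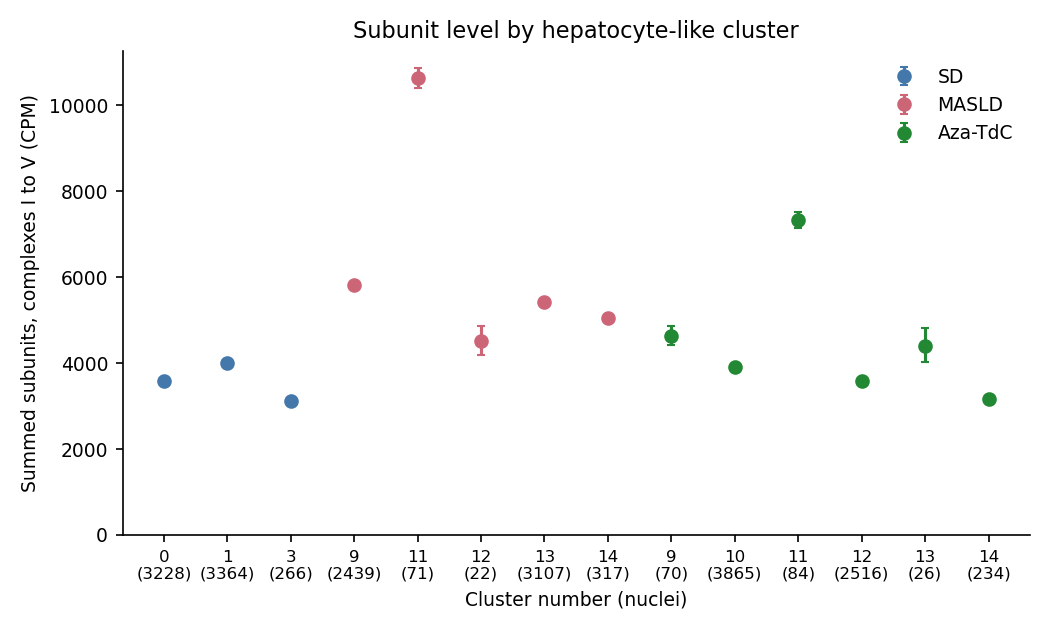
Summed subunits of complexes I to V (CPM, Poisson 95% intervals) in each hepatocyte-like cluster with at least 20 nuclei, by library. Cluster 11 stands above the others in MASLD and Aza-TdC, and the SD clusters lie between 3119 and 4006 CPM.

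Nuclei of other classes showed MASLD highest as well. Endothelial-like nuclei had 3589, 9327 and 5347 CPM in SD, MASLD and Aza-TdC over 118, 195 and 195 nuclei. Stellate-like nuclei had 3643, 7490 and 4742 CPM over 77, 106 and 84 nuclei, and macrophage-like nuclei 3311, 6284 and 3762 CPM over 31, 216 and 317. Their median mt- shares in the same order of libraries were 0.348%, 1.99% and 0.484% in endothelial-like, 0.317%, 1.29% and 0.356% in stellate-like and 0.295%, 0.926% and 0.222% in macrophage-like nuclei, highest in MASLD too. The part of free or cytoplasmic RNA in these differences was not tested.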

How the data were processed

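Nuclei were extracted from 120 mg of frozen liver per library and sorted by FACS, as the labels' protocols describe. The files hold raw UMI counts per gene and barcode, deposited by the authors, whose file headers name Cell Ranger 6.1.2. The submitters' processing notes list Seurat 4.4.0, mm10 and GRCm38 with no role. Not stated are intron counting, the strand setting, the annotation release and whether doublets or free RNA were removed.

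Barcodes with at least 500 UMIs, 300 genes and at most 5% mt- UMIs were kept (202 of MASLD and 7 of Aza-TdC were left out) and clustered together (scanpy 1.11.5, 3000 variable genes, 30 principal components, 15 neighbours, Leiden resolution 1, no integration). No doublet caller was run. Classes came from marker lists, and the naming was changed after clusters had been seen: a minimum median log2 of 3, no class from red cell or cycling genes, and no name for shallow clusters without own markers (cluster 15). UMIs were summed per library and scaled to CPM, with exact Poisson and exact conditional binomial 95% intervals and order-statistic intervals for medians. A gene was measured with at least 20 UMIs over the libraries compared. The 2-fold limit is a log2 ratio of 1 or -1, and a count of 0 allows up to 3 counts. The ratios, their binomial intervals and the 2-fold call were tested on simulated UMI sums that held counting error only. Filtering, clustering, naming, matching and the intervals of medians were not tested in this way.

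Named members were a list of core subunits and isoforms, and the 4 highest and 4 lowest ratios of each comparison with at least 50 UMIs in one of its libraries. One gene of the list is not reported here. The members, lists and this rule were chosen with earlier results of these data known. Gene models were GENCODE M21 on GRCm38. Alternatives changed the scaling, UMI minimum, fold, mt- limit, naming, matching and depth.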

Additional observations from a re-analysis of the deposited data

Results flagged for a closer look

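Subunit transcripts also stood above the level of SD hepatocyte-like nuclei, 3767 CPM, in barcodes that no comparison used. The 202 MASLD barcodes left out by the filters, with medians of 6.97% mt- UMIs and 1527 UMIs, had 13111 CPM (12736 to 13495). The unnamed cluster 15, with haemoglobin genes among its leading genes, had 10379 CPM (9969 to 10803) over 158 MASLD barcodes and 7161 CPM (6726 to 7616) over 113 Aza-TdC barcodes, with median depths of 1216.5 and 744 UMIs. SD had 0 barcodes in either set.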

How the results depend on the processing

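No paired analysis was possible because each group has 1 library and no result comes from a test. Over the alternatives run, the members' median ranged from 0.48 to 0.72 in MASLD against SD, from -0.64 to -0.50 in Aza-TdC against MASLD and from -0.04 to 0.03 in Aza-TdC against SD, so the first 2 kept their sign. In matched nuclei the ranges were 0.31 to 0.51, -0.46 to -0.34 and 0.00 to 0.07. Of the medians and counts recomputed, 95 stayed within the main interval of the median or 1.5 times the count and 10 did not. The count past 2-fold in MASLD against SD, 15, was 5 with median-ratio scaling, 49 at 1.5-fold and 5 in nuclei with no haemoglobin UMI. In Aza-TdC against MASLD, 9 became 4, 47 and 3 under these settings and 15 without cluster 13. In Aza-TdC against SD, 1 became 0 at a minimum of 100 UMIs and 6 at 1.5-fold. The median in matched nuclei of MASLD against SD was 0.31 with median-ratio scaling in place of 0.44. The settings without haemoglobin UMIs and without cluster 11 were chosen after seeing the data. The cause of these moves was not tested beyond what each setting itself changes. Depth limits the isoforms with few UMIs, Cox6b2 and Cox7a1. With 1 library per group, animal, batch and handling cannot be told apart from diet and drug.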
